A study of Mus musculus and Rattus norvegicus with 30 samples.

Results

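The Ly6 family surface proteins described here are 10 genes, Ly6a, Ly6c1, Ly6c2, Ly6d, Ly6e, Ly6g6d, Ly6g6e, Ly6h, Ly6i and Ly6k, taken by gene symbol from the 54315 features of a mouse dorsal root ganglion (DRG) count table. In the 39281 features of the matching rat table, 7 of the 10 symbols are listed, and Ly6a, Ly6c1 and Ly6c2 are not among them. The family was chosen by measured values of these libraries, the injury and strain differences of its genes and above all of Ly6a, so the mouse injury, strain and interaction values of the 10 genes are given as a description, without p-values. Where such a value is said to be called or not called, this only tells on which side of a threshold it lay, and it is no test of the family. The comparison of sex in mouse was not used in that choice and is given with its test. The rat injury comparison is also given with its tests. Earlier results of these data were known when the genes were chosen, so the rat comparison is no independent test of the family.

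RNA was sequenced from L3 and L4 DRG of male and female mice of the inbred strains BALB/c and B10.D2 after sham surgery or spared nerve injury (SNI), a lesion that cuts some branches of the sciatic nerve and leaves 1 intact, with 1 animal per library. There were 6 sham and 4 SNI libraries of BALB/c and 5 of each kind of B10.D2, and they are named by the number in their title. RNA of male Wistar rats came from L5 DRG after spinal nerve transection (SNT) or sham surgery, in 4 libraries per group, each a pool of 3 animals. No transgene or drug was named for any group. The labels give no ages, and tissue was taken at a single time per species, weeks after surgery, so no course over time can be drawn.

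Ly6 proteins are small, cysteine-rich proteins, most of them held on the outer face of the cell membrane by a lipid anchor. Ly6a (Sca-1) is best known as a marker of blood stem cells and is also found on T cells and on endothelium, Ly6c1 and Ly6c2 make the Ly6C antigen of monocytes and of some endothelial cells, and Ly6e and Ly6a belong to the genes that interferons raise. Ly6h is a neuronal member that binds nicotinic acetylcholine receptors, as its relative Lynx1 does. Ly6d marks cells of the early B lineage and of stratified epithelia, and Ly6k is best known from testis.

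In the GENCODE M21 annotation of mm10, 8 of the genes lay on chromosome 15 between chr15:74762056-74763620 (Ly6d, minus strand) and chr15:75551268-75567255 (Ly6h, minus strand), a span of 805.2 kb. Ly6a was at chr15:74994877-74998031, Ly6c1 at chr15:75044018-75048830 and Ly6c2 at chr15:75108158-75111970, all on the minus strand. Ly6e lay at chr15:74955051-74959905 on the plus strand, Ly6i at chr15:74979534-74983430 and Ly6k at chr15:74796874-74799986, both on the minus strand. Ly6g6d (chr17:35071443-35078065, minus strand) and Ly6g6e (chr17:35076902-35078804, plus strand) were on chromosome 17 and overlapped on opposite strands. All 10 genes are annotated as protein-coding, with 3 coding exons each in the lowest-numbered coding transcript.

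The middle coding exon is shown for the genes whose near-identity bears on how reads can be told apart, and for Ly6h as a distant member. It is 117 bases long in all 5. Sequences are from the GRCm38 (mm10) assembly, in the direction of transcription from 5′ to 3′, and capitals mark bases that differ from Ly6c1 at the same position.
Ly6c1, chr15:75047353-75047469, minus strand: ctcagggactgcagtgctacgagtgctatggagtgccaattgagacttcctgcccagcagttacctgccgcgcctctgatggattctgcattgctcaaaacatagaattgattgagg
Ly6c2, chr15:75110511-75110627, minus strand: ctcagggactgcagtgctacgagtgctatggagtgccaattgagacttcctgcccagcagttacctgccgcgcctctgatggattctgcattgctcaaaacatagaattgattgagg
Ly6a, chr15:74996452-74996568, minus strand: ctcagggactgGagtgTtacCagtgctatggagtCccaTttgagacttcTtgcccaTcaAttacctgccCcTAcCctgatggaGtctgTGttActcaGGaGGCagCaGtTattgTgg
Ly6i, chr15:74981886-74982002, minus strand: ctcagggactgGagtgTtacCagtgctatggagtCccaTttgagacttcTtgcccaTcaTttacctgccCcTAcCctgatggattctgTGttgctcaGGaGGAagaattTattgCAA
Ly6h, chr15:75565583-75565699, minus strand: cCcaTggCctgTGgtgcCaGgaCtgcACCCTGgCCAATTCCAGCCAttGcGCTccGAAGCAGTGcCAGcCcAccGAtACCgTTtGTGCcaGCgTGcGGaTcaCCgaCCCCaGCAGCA
Ly6c2 did not differ from Ly6c1 at any of the 117 bases, Ly6a differed at 25, Ly6i at 23 and Ly6h at 75. Over the whole coding sequence, Ly6c1 and Ly6c2 were identical at 97.7% of aligned positions, Ly6a and Ly6i at 86.3%, and Ly6a and Ly6c1 at 81.8%, whereas no pair outside these 4 genes passed 53.8%.

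Reads were 100 bases long, and a stretch of that length present in more than 1 gene can be assigned only through the other read of its pair. Of the 1756 distinct windows of 100 bases in Ly6c1 transcripts, 159 (9.05%) also occurred in Ly6c2 and 19 (1.08%) in Ly6a. The same 159 windows were 5.81% of the 2737 windows of Ly6c2, and the 19 were 1.45% of the 1311 windows of Ly6a. Ly6d, Ly6e, Ly6h and Ly6i shared none with any annotated transcript. On opposite strands, Ly6g6d and Ly6g6e shared 131 windows and Ly6k shared 135 of its 730 with the annotated gene Gm17189. The levels of Ly6c1 and Ly6c2 are therefore uncertain where their reads coincide, and whether counting used strand is not given in the sources used here.

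The mouse libraries held 29.99 to 41.88 M counts (M, mega) and the rat libraries 11.95 to 17.89 M, so a count of 3, taken as the least that shows a gene, is 0.0716 to 0.100 counts per M counts (CPM) in mouse and 0.168 to 0.251 CPM in rat. No 2 libraries within a group were identical. Markers of nerve injury rose after surgery in 10 of 10 genes in BALB/c, 9 of 10 in B10.D2 and 7 of 7 tested in rat. B10.D2 SNI 76 had the lowest injury index of the SNI libraries, 4.17 against 5.12 to 5.89 in the others, where the index is the mean log2(CPM + 1) over those markers. The index was 5.62 to 5.89 in BALB/c SNI and 4.17 to 5.37 in B10.D2 SNI, with no overlap. In sham it was 2.85 to 3.72 and 2.88 to 3.44. For the interaction, 1 of the 10 markers was called (Gal, with the smaller rise in B10.D2). The part of this in the strain differences of the Ly6 genes was not tested. In rat, sham 4 had an index of 5.57 against 4.10 to 4.37 in the other sham pools, and SNT 1 was the lowest of its group at 6.04, so both stood between the groups. Rat results are given with and without these 2 pools. Defining markers of neurons, glia, endothelium and fibroblasts were present in all mouse groups.

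Of the 10 genes, 6 passed the filter on low counts in mouse and were fitted. When levels were scaled to exon length, Ly6c1 was the highest in BALB/c sham libraries at 7.14 ± 0.70 CPM per kb (SD, n = 6), followed by Ly6e at 4.99 ± 1.11, Ly6a at 4.24 ± 0.85 and Ly6h at 3.91 ± 0.476. Ly6e, Ly6a and Ly6h lay within the spread of their neighbours in that order. Ly6c2 stood far lower at 0.342 ± 0.172 CPM per kb, and Ly6d at 0.187 ± 0.123. In BALB/c SNI libraries Ly6a was the highest at 21.6 ± 1.5 CPM per kb (SD, n = 4), more than its neighbour in the order, Ly6c1, whose highest library did not reach the lowest of Ly6a. In B10.D2, Ly6a was also first, at 10.9 ± 2.31 CPM per kb in sham (SD, n = 5) and 17 ± 2.93 in SNI (SD, n = 5), although in sham its spread overlapped that of Ly6c1 at 9.11 ± 1.61. The remaining 4 genes, Ly6g6d, Ly6k, Ly6i and Ly6g6e, had group means under 0.20 CPM per kb.

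**Figure D1:**
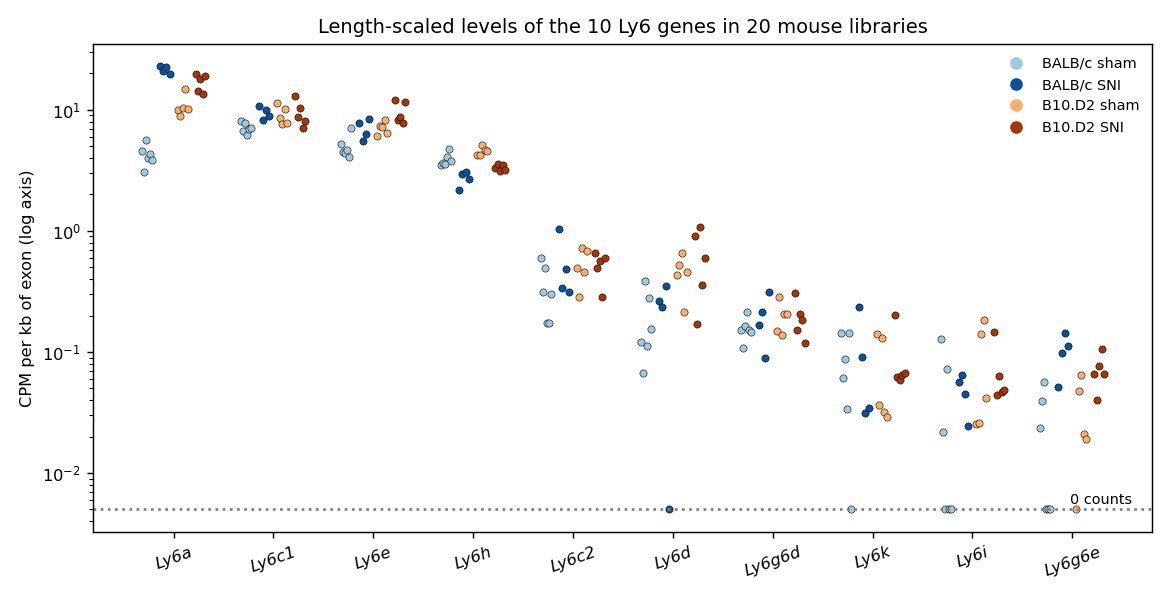
Level of each of the 10 Ly6 genes in 20 mouse libraries, in CPM per kb of exon on a log axis, with 1 point per library and colours for the 4 groups. Points on the dotted line are libraries with 0 counts. Ly6a, Ly6c1, Ly6e and Ly6h form the upper set, and Ly6a alone moves from below Ly6c1 in BALB/c sham to above it in BALB/c SNI.

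Ly6a was the member with the widest range in mouse. In BALB/c sham libraries its level ran from 3.71 to 6.81 CPM, with a median of 4.98. In the BALB/c SNI libraries it was 27.7, 25.2, 27.5 and 23.9 CPM in libraries 49, 64, 65 and 70. The BALB/c groups did not overlap, and the lowest SNI library, at 23.9 CPM, stood far above the highest sham library, at 6.81 CPM. The fitted change was 2.36 ± 0.14 on the log2 scale (SE), or 5.13-fold, and it was called, which here means an adjusted p-value under 0.05 in the edgeR fit over all features.

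In B10.D2 sham libraries 58, 60, 67, 77 and 88, Ly6a was at 12.0, 10.7, 12.5, 17.9 and 12.4 CPM. In the B10.D2 SNI libraries 69, 76, 78, 89 and 90 it was at 24.0, 17.3, 21.8, 16.2 and 23.1 CPM. These groups overlapped, because sham library 77 was above SNI libraries 76 and 89. The fitted change was 0.61 ± 0.13 (log2, SE), or 1.53-fold, and was called. Without sham library 77 it was 0.73, and without any other library it was at least 0.51.

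The difference between the 2 changes of Ly6a was −1.74 ± 0.19 (log2, B10.D2 minus BALB/c, SE) and was called, as were 0.0243% of all features. Because this value chose the family, nothing is read from that share. The sham levels differed too: B10.D2 sham was 1.37 ± 0.13 (log2, SE) above BALB/c sham, or 2.59-fold, with no overlap between the groups. After SNI the order turned. B10.D2 SNI was 0.37 ± 0.14 (log2, SE) below BALB/c SNI, a difference that was not called in the main edgeR fit on all mouse libraries. On all mouse libraries it was called with DESeq2 and with no filter on low counts, at −0.37 in both. On the SNI libraries alone it was called at −0.35 ± 0.11. It was also called without B10.D2 SNI 69 or 90, B10.D2 sham 77 or BALB/c sham 51 or 55, at −0.41, −0.47, −0.36, −0.37 and −0.37. Only the highest B10.D2 SNI library, at 24.0 CPM, reached the range of BALB/c SNI. Across the 25 alternative settings of the interaction its value stayed between −1.85 and −1.62.

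Within each sex the pattern of Ly6a was the same in direction. In males of BALB/c the mean was 4.62 CPM in sham (n = 3) and 25.8 in SNI (n = 2), and in BALB/c females it was 5.59 (n = 3) and 26.35 (n = 2). In B10.D2 males it was 11.7 CPM (n = 3) and 19.7 (n = 2), and in B10.D2 females 15.2 (n = 2) and 21.03 (n = 3). The ratio of SNI to sham was thus 5.58 and 4.715 in BALB/c males and females, and 1.68 and 1.38 in B10.D2 males and females.

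**Figure D2:**
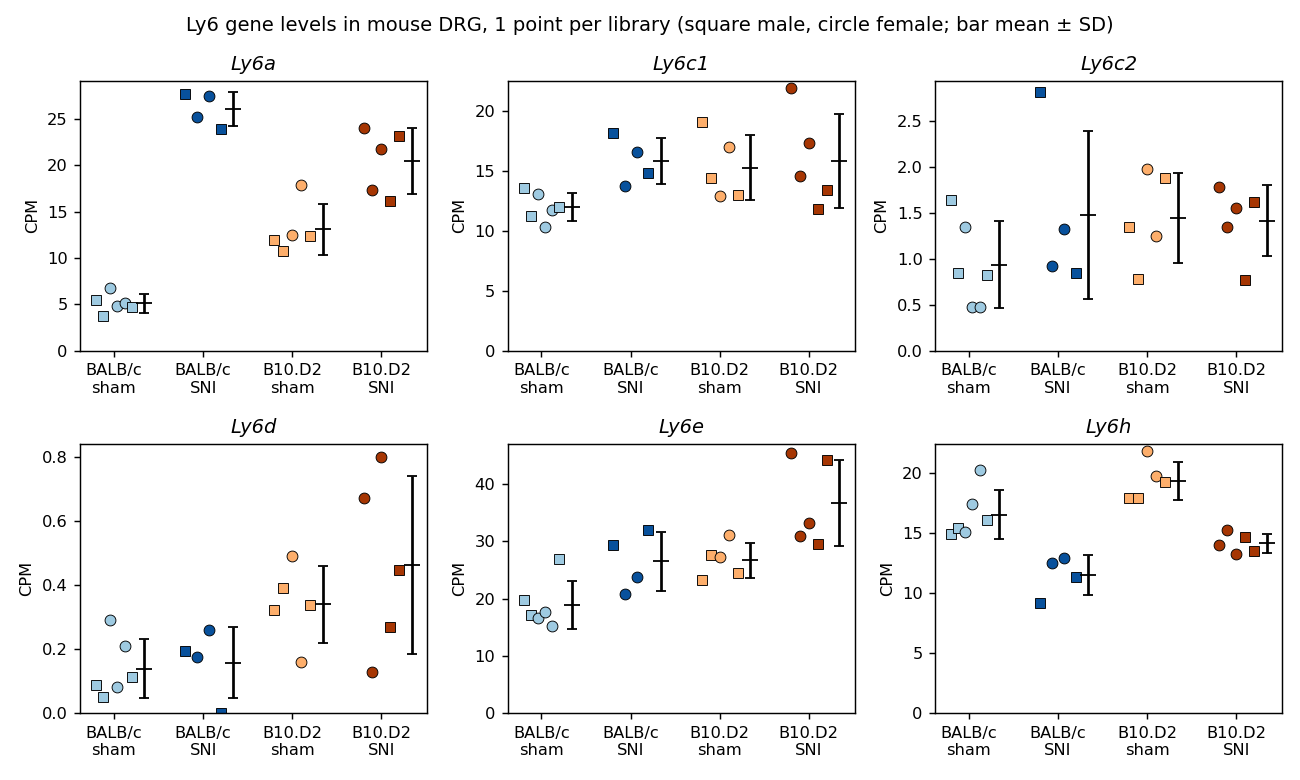
Level (CPM) of the 6 fitted Ly6 genes in each mouse library, by strain and surgery. Squares are males, circles are females, and the bar beside each group is the mean ± SD. Ly6a sits between 3.71 and 6.81 CPM in BALB/c sham and between 23.9 and 27.7 in BALB/c SNI, with both B10.D2 groups between these ranges or at their edge, and Ly6h is lower in SNI than in sham in both strains.

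Because Ly6a is made by several cell types, marker lists of those types are given beside it. In bulk RNA, more cells of a type and more RNA per cell cannot be told apart. Of 12 endothelial markers, 1 was called after SNI in BALB/c (Cldn5, higher) and none in B10.D2, and 7 were called lower in B10.D2 than in BALB/c in sham. The summed level of the 12 ran from 288 to 356 CPM in sham and 322 to 364 in SNI of BALB/c, and from 251 to 295 in sham and 255 to 321 in SNI of B10.D2. Of 10 macrophage and monocyte markers, 4 were called higher after SNI in BALB/c (Cd68, Csf1r, Cx3cr1 and Lyz2) and none in B10.D2. The median change of the 10 was 0.492 (log2) in BALB/c and 0.42 in B10.D2. None was called for the interaction, so calls in 1 strain only do not show that the strains differ. Between the strains, 5 were called higher in B10.D2 sham than in BALB/c sham. The sum of the 10 ran from 132 to 317 CPM in sham and 256 to 386 in SNI of BALB/c, and from 244 to 286 in sham and 240 to 423 in SNI of B10.D2. Of 8 lymphocyte markers none was called after SNI in either strain, and 4 were called higher in B10.D2 sham, with sums of 4.37 to 14 CPM over all groups. No marker of these lists was called for the interaction, beside 0.0243% of all features. Over all features, 9.69% were called after SNI in BALB/c, 4.58% in B10.D2 and 21.6% between the strains in sham. None of the listed markers was at 0 in all mouse libraries. The part of these cells in the Ly6a values was not tested.

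Of 13 interferon-stimulated genes, none was called after SNI in BALB/c and 2 were called higher in B10.D2 (Ifitm3 and Irf9). Over all features, 4.82% were called higher after SNI in BALB/c and 2.1% in B10.D2. None of the 13 was called for the interaction, beside 0.0243% of all features. In B10.D2 relative to BALB/c, 5 of the 13 were called higher in sham and 8 in SNI, beside 11.5% and 10.9% of all features. The summed level of the 13 was 128.5 to 236.6 CPM in BALB/c sham and 168 to 190 in BALB/c SNI. In B10.D2 the sum was 183 to 263 CPM in sham and 241 to 349 in SNI. The part of interferon in the Ly6a values was not tested.

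Ly6e, the member with the highest counts in mouse, moved by nearly equal amounts in both strains. Its level was 15.3 to 26.9 CPM in BALB/c sham, with a median of 17.4, and 29.4, 20.7, 23.8 and 31.99 CPM in SNI libraries 49, 64, 65 and 70. The groups overlapped through sham library 71, the highest of its group. In B10.D2 sham libraries 58, 60, 67, 77 and 88 it was 23.2, 27.6, 27.2, 31.1 and 24.4 CPM, and in SNI libraries 69, 76, 78, 89 and 90 it was 45.5, 31.0, 33.2, 29.5 and 44.2 CPM. The B10.D2 groups overlapped as well, and SNI libraries 69 and 90 stood above the rest.

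The fitted change of Ly6e was 0.49 ± 0.15 (log2, SE) in BALB/c, which was called, and 0.48 ± 0.15 in B10.D2, which was not. The difference between the 2 changes was −0.0037 ± 0.21 (log2, SE), so a call in 1 strain only does not show that the strains differ. The BALB/c call was lost in 11 of the 20 fits that left out a library (BALB/c SNI 49, 65 or 70, BALB/c sham 50, 51, 55, 56 or 57, and B10.D2 SNI 78, sham 60 or sham 67), with changes of 0.40 to 0.50, and the B10.D2 change was called without B10.D2 SNI 89, B10.D2 sham 77 or BALB/c sham 71, at 0.58, 0.58 and 0.47. The BALB/c call was also lost with no sex term, at 0.49, and the B10.D2 change was called with DESeq2 and with no filter on low counts, at 0.48 in both. Ly6e was also higher in B10.D2 than in BALB/c by 0.50 ± 0.14 in sham and 0.50 ± 0.16 in SNI (log2, SE), and both were called. The sham call was lost without B10.D2 sham 77, at 0.41, and the SNI call without B10.D2 SNI 69 or 90 or BALB/c SNI 64 or 65, at 0.39, 0.44, 0.40 and 0.47.

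Ly6h was the only member called lower after SNI. In BALB/c sham it was 14.9 to 20.2 CPM, with a median of 15.8, and in SNI libraries 49, 64, 65 and 70 it was 9.21, 12.5, 12.9 and 11.3 CPM. In B10.D2 sham libraries 58, 60, 67, 77 and 88 it was 17.9, 17.9, 21.8, 19.8 and 19.3 CPM, and in SNI libraries 69, 76, 78, 89 and 90 it was 13.98, 15.2, 13.3, 14.7 and 13.5 CPM. Sham and SNI did not overlap in either strain. The change was −0.52 ± 0.08 in BALB/c and −0.48 ± 0.08 in B10.D2 (log2, SE), called in both, and the difference between the changes was 0.045 ± 0.11.

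B10.D2 carried more Ly6h than BALB/c, by 0.24 ± 0.07 in sham and 0.29 ± 0.08 in SNI (log2, SE). Both differences were called, although the sham groups overlapped. The sham call was lost without B10.D2 sham 67 or 88 or BALB/c sham 55, at 0.22, 0.23 and 0.20, and the SNI call without B10.D2 SNI 89 or BALB/c SNI 49, at 0.25 and 0.22. With no sex term the sham call was also lost, at 0.23. Of 9 neuron markers, 2 (Nefl and Snap25) were called lower after SNI in each strain, and the summed level of the 9 was 11420 to 12790 CPM in sham and 10180 to 11640 in SNI of BALB/c, and 12120 to 14300 in sham and 10250 to 12550 in SNI of B10.D2. None of the 9 was at 0 in all libraries. The part of neuronal RNA in the Ly6h values was not tested.

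Ly6c1 and Ly6c2 share the exon printed above, yet Ly6c1 was at 7.14 and Ly6c2 at 0.342 CPM per kb of exon in the mean of BALB/c sham. Ly6c1 was 10.3 to 13.5 CPM in BALB/c sham, with a median of 11.8, and 18.1, 13.7, 16.6 and 14.9 CPM in SNI libraries 49, 64, 65 and 70. These groups did not overlap, but only by a narrow margin, and the change of 0.40 ± 0.14 (log2, SE) was not called in the main edgeR fit on all mouse libraries. It was called at 0.40 on the BALB/c libraries alone and without B10.D2 SNI 69, and at 0.39 with no filter on low counts. In B10.D2, Ly6c1 was 12.9 to 19.1 CPM in sham and 11.9 to 21.9 CPM in SNI, a change of 0.034 ± 0.14. B10.D2 was above BALB/c by 0.36 ± 0.14 in sham and at −0.011 ± 0.15 in SNI, and neither was called in the main edgeR fit on all mouse libraries. The sham difference was called without B10.D2 SNI 69, B10.D2 sham 67 or BALB/c sham 50, at 0.35, 0.43 and 0.41. It was also called with DESeq2 and with no filter on low counts, at 0.35 in both, and on the sham libraries alone, at 0.335.

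Ly6c2 was 0.474 to 1.64 CPM in BALB/c sham, with a median of 0.84. In BALB/c SNI it was 2.82 CPM in library 49 and 0.928, 1.32 and 0.851 CPM in libraries 64, 65 and 70, so library 49 stood apart and the other 3 lay within the sham range. The change was 0.63 ± 0.37 (log2, SE), was not called, and fell to 0.12 without the library that stood apart. In B10.D2 it was 0.784 to 1.98 CPM in sham and 0.776 to 1.79 in SNI, a change of −0.014 ± 0.36. Counts of 16 to 87 read pairs per library lie behind these values. Neutrophil markers, whose cells also carry Ly6 antigens, summed to 40.3 to 304 CPM in sham and 82.3 to 486 in SNI of BALB/c, and to 20.3 to 73.7 in sham and 24.5 to 48.2 in SNI of B10.D2. All 8 were called lower in B10.D2 SNI than in BALB/c SNI and 4 of 8 in sham, and none was called after SNI. Their part in the Ly6c values was not tested.

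Ly6d was measured at 0 to 33 counts per library. It was 0.0501 to 0.290 CPM in BALB/c sham, and 0.195, 0.175, 0.259 and 0 CPM in BALB/c SNI libraries 49, 64, 65 and 70, where 0 counts allow up to 0.0849 CPM. In B10.D2 it was 0.160 to 0.489 CPM in sham and 0.128 to 0.800 in SNI. B10.D2 was above BALB/c by 1.35 ± 0.51 in sham and 1.5 ± 0.54 in SNI (log2, SE), and the groups overlapped in both. Neither difference was called in the main edgeR fit on all mouse libraries. Both were called with DESeq2 (1.44 in sham and 1.54 in SNI) and with no filter on low counts (1.36 and 1.51). That in sham was also called on the sham libraries alone (1.31). It was called as well without B10.D2 SNI 76, B10.D2 sham 77, BALB/c SNI 70 or BALB/c sham 55 (1.38, 1.67, 1.33 and 1.65), and that in SNI without B10.D2 SNI 76 or sham 77 (1.78 and 1.5). After SNI the change was 0.15 ± 0.62 for BALB/c and 0.30 ± 0.46 for B10.D2, with errors larger than the values.

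The 4 genes under the filter were present at a few read pairs. Ly6g6d had 4 to 13 counts in every library and overlapping groups throughout. Ly6g6e had 1, 2, 3, 0, 0 and 0 counts in BALB/c sham libraries 50, 51, 55, 56, 57 and 71, and 2, 5, 7 and 5 in SNI libraries 49, 64, 65 and 70. It had 0, 2, 3, 1 and 1 counts in B10.D2 sham libraries 58, 60, 67, 77 and 88, and 3, 2, 4, 5 and 3 in SNI libraries 69, 76, 78, 89 and 90. SNI counts lay at the upper end in both strains and overlapped with sham, and the highest was 7. When the filter was dropped, Ly6g6e was not called after SNI in either strain, at 2.12 ± 0.72 and 1.14 ± 0.72 (log2, SE). Ly6i had 0 to 8 counts and Ly6k 0 to 6, with no order between the groups.

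Of the 10 genes, 6 were tested in mouse, and the counts here are out of those 6. After SNI in BALB/c, 3 were called (Ly6a and Ly6e higher, Ly6h lower) where 9.69% of all features tested were called, 4.82% higher and 4.87% lower. In B10.D2, 2 were called (Ly6a higher, Ly6h lower) beside 4.58% of all features, 2.1% higher and 2.48% lower. Between the strains, 3 were called in sham (Ly6a, Ly6e and Ly6h, all higher in B10.D2) beside 21.6%, of which 11.5% higher and 10% lower. In SNI, 2 were called (Ly6e and Ly6h, higher in B10.D2) beside 20.8%, of which 10.9% higher and 9.98% lower. Since these contrasts stood behind the choice of the family, nothing is read from the counts. The strain contrasts share their SNI or sham libraries with the injury contrasts. Reads were aligned to mm10, which derives from C57BL/6J, a strain nearer to B10.D2 than to BALB/c, and the part of that in the strain differences was not tested.

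**Figure D3:**
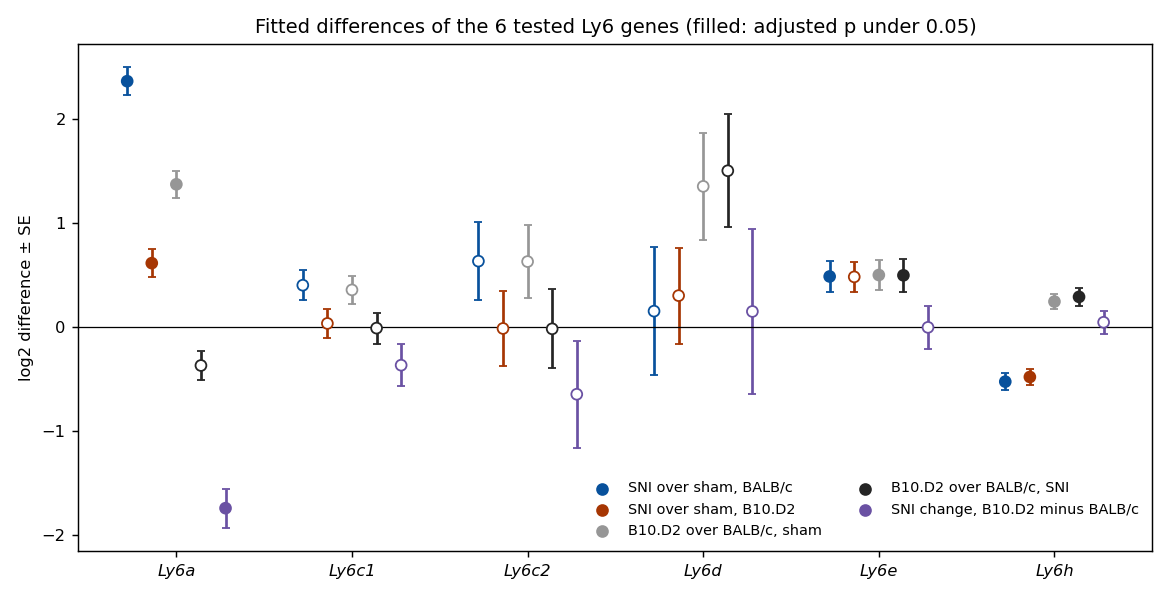
Fitted log2 differences ± SE of the 6 Ly6 genes in 5 mouse contrasts, with filled points for an adjusted p-value under 0.05. Ly6a is the member with a filled interaction, at −1.74, whereas the injury changes of Ly6e and of Ly6h are nearly equal in the 2 strains.

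Sex was not among the values that chose the family. Over 10 male and 10 female libraries, none of the 6 genes was called, where 0.243% of all features were called by edgeR. The differences were 0.16 ± 0.06 for Ly6h (female over male, log2, SE; edgeR adjusted p = 0.243), 0.20 ± 0.09 for Ly6a (adjusted p = 0.413) and 0.58 ± 0.37 for Ly6d (adjusted p = 0.577). For Ly6e, Ly6c1 and Ly6c2 they were −0.15 ± 0.10, 0.064 ± 0.10 and −0.12 ± 0.26, with edgeR adjusted p-values of 0.621, 0.862 and 0.911. At an unadjusted p under 0.05, 2 of the 6 passed, Ly6h and Ly6a, and DESeq2 called none. The ranges of male and female libraries overlapped for all 6.

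In rat DRG, 7 of the 10 symbols were listed, 2 of them (Ly6e and Ly6h) passed the filter on low counts, and 27.4% of all features tested were called after SNT. Ly6h fell. It was at 1.99, 2.87, 2.21 and 1.69 CPM in sham pools 1 to 4, and at 1.39, 0.218, 0.278 and 0.131 CPM in SNT pools 1 to 4, from counts of 24 to 47 and of 2 to 22. The groups did not overlap, and SNT pool 1 stood nearer to sham than to the other SNT pools. The change was −2.13 ± 0.56 (log2, SE; edgeR adjusted p = 0.0228). Without both sham pool 4 and SNT pool 1 it was −3.43 ± 0.36 (adjusted p = 0.000127), and without SNT pool 1 alone −3.32 ± 0.36 (adjusted p = 0.000478). In these fits 43.9% and 36.1% of all features were called. Both pools were picked by their injury index, so a larger change without them is no further support. The call was lost without SNT pool 2, 3 or 4 or sham pool 1, 2 or 3, at adjusted p-values of 0.067, 0.0637, 0.0555, 0.0507, 0.0605 and 0.0578, with changes of −2.15 to −1.81. Of the neuron markers, 2 of the 4 tested in rat fell (Avil and Isl1), 4 of the 8 listed were at 0 in all pools, and their sum was 5539 to 7957 CPM in sham and 3752 to 7126 in SNT. Their part in the fall of Ly6h was not tested.

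Ly6e was at 36.5, 45.6, 35.8 and 33.9 CPM in sham pools 1 to 4 and at 44.1, 48.7, 47.3 and 40.6 CPM in SNT pools 1 to 4. Sham pool 2 lay within the SNT range and the other 3 sham pools lay below it. The change was 0.25 ± 0.12 (log2, SE), which edgeR did not call (adjusted p = 0.135). It was 0.22 ± 0.13 without both pools that stood between the groups (adjusted p = 0.218), and it passed the threshold without sham pool 2, at 0.37 ± 0.11 (adjusted p = 0.0461). Ly6i had 1 to 4 counts and Ly6k 0 or 1 in each pool, neither of which was tested. Ly6d, Ly6g6d and Ly6g6e were listed at 0 in all 8 pools, which allows up to 0.168 to 0.251 CPM. Many rat features were listed at 0 in all pools, among them 6 of 9 glia markers and 5 of 11 listed endothelial markers, so a 0 there is not read as absence. Rat libraries were made from polyadenylated RNA and mouse libraries from RNA depleted of ribosomal RNA, and their levels are not compared.

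**Figure D4:**
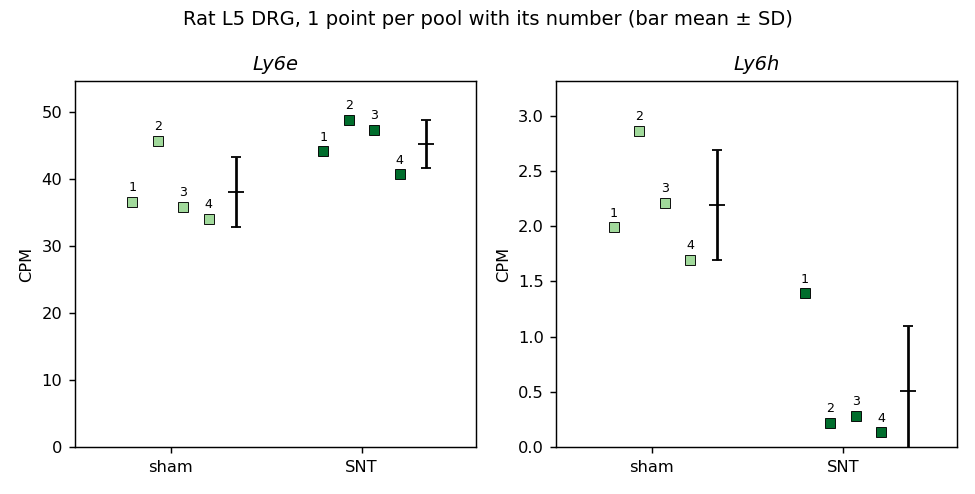
Level (CPM) of Ly6e and Ly6h in the rat L5 DRG pools, with each pool's number above its point and the mean ± SD beside each group. Ly6h is at 1.69 to 2.87 CPM in sham and at 0.131 to 0.278 in SNT pools 2 to 4, with SNT pool 1 at 1.39, and the Ly6e groups overlap through sham pool 2.

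The wider family was followed with a list of 37 other genes of the Ly6 and urokinase receptor (uPAR) group, of which 31 were listed and 15 tested in mouse. After SNI in BALB/c, 2 of the 15 were called higher and 1 lower, where 4.82% of all features were called higher and 4.87% lower. The median change of the 15 was 0.080 (log2), beside 0.0033 over all features. Cd59a, which shields cells from complement, rose from 63.98 ± 3.68 (SD, n = 6) to 80.5 ± 2.53 CPM (SD, n = 4), by 0.33 ± 0.05 (log2, SE; edgeR adjusted p = 6.09e-05). Plaur, the urokinase receptor, rose from 8.94 ± 0.70 (SD, n = 6) to 12.6 ± 0.49 CPM (SD, n = 4), by 0.50 ± 0.09 (adjusted p = 0.00076 by edgeR). Slurp2, a secreted member, fell by 0.76 ± 0.23 on the log2 scale (edgeR adjusted p = 0.0427), at about 1 CPM. The call of Slurp2 was lost in 8 of 20 fits that left out a library (BALB/c SNI 49, 64 or 65, BALB/c sham 51, 56, 57 or 71, and B10.D2 sham 67), with changes of −0.83 to −0.60. On the BALB/c libraries alone the Slurp2 call was also lost, at −0.76, and Gpihbp1 was called lower, at −0.47. Ly6g was called without BALB/c sham 50, at 1.55 ± 0.45. In B10.D2 none of the 15 was called by edgeR or DESeq2 after SNI, where edgeR called 4.58% of all features. There 4 were at an unadjusted p under 0.05, and the median was 0.011. For the interaction none was called by either tool, where edgeR called 0.0243% of all features, and 2 were at an unadjusted p under 0.05. The changes of Cd59a and Plaur are therefore not shown to differ between strains.

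Between the strains, 6 of the 15 were called in sham and the same 6 in SNI, beside 21.6% and 20.8% of all features, 3 of them higher in B10.D2 and 3 lower. Lypd1, which like Lynx1 acts on nicotinic receptors, had a sham level of 4.37 ± 0.53 CPM (SD, n = 6) for BALB/c and 14.5 ± 4.80 (SD, n = 5) in B10.D2 sham, higher by 1.73 ± 0.16 (log2, SE; edgeR adjusted p = 3.58e-08). Cd59a was higher in B10.D2 sham by 0.35 ± 0.04 (edgeR adjusted p = 2.54e-06) and in B10.D2 SNI by 0.16 ± 0.05 (adjusted p = 0.0188), the second lost without BALB/c SNI 64 or B10.D2 SNI 78, at 0.14 in both. Lypd2 was higher by 0.63 ± 0.22 in sham (edgeR adjusted p = 0.0462), a call lost in 12 of 20 fits that left out a library (BALB/c sham 51, 56, 57 or 71, BALB/c SNI 64, 65 or 70, B10.D2 sham 58, 67 or 88, and B10.D2 SNI 69 or 78), at 0.45 to 0.67, and by 0.85 ± 0.25 in SNI (adjusted p = 0.0181), lost without BALB/c SNI 49 or 65 or B10.D2 SNI 90, at 0.76, 0.82 and 0.75. On the sham libraries alone the sham call of Lypd2 was also lost, at 0.61.

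Of the 3 that were lower in B10.D2, Ly6g, the neutrophil antigen, was at 0.328 to 2.68 CPM in BALB/c sham and 0.0603 to 0.322 in B10.D2 sham, a difference of −2.53 ± 0.59 (log2, SE; edgeR adjusted p = 0.00299), beside the lower neutrophil markers given above. In SNI it was at 1.13 to 5.16 CPM in BALB/c and 0.230 to 0.461 in B10.D2, lower by 2.59 ± 0.54 on the log2 scale (edgeR adjusted p = 0.00127). Gpihbp1, which holds lipoprotein lipase on capillary endothelium, had a sham level of 3.35 ± 0.41 CPM (SD, n = 6) for BALB/c and 1.71 ± 0.36 (SD, n = 5) in B10.D2 sham, with a difference of −0.96 ± 0.18 (log2, SE; edgeR adjusted p = 0.000417). In SNI it differed by −0.84 ± 0.21 (adjusted p = 0.00472 by edgeR), beside the lower endothelial markers in B10.D2. The part of neutrophils in the Ly6g values and of endothelium in the Gpihbp1 values was not tested. Plaur differed by −0.60 ± 0.09 in sham (edgeR adjusted p = 2.25e-05) and by −0.98 ± 0.09 in SNI (adjusted p = 8.05e-08). None of the 15 was called by sex in edgeR, beside 0.243% of all features, with 3 at an unadjusted p under 0.05. DESeq2 called 1, Lynx1, beside 0.988% of all features.

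In rat, 25 of the 37 were listed and 5 tested, of which 1 rose and 1 fell after SNT, beside 27.4% of all features. Lypd3, a member known from epithelia, rose from 0.421 ± 0.198 to 1.32 ± 0.358 CPM (SD, n = 4 per group), by 1.65 ± 0.39 (log2, SE; edgeR adjusted p = 0.0158). Pate2, a secreted member known from prostate and testis, fell from 1.62 ± 0.364 to 0.492 ± 0.254 CPM (SD, n = 4 per group), by 1.70 ± 0.35 on the log2 scale (edgeR adjusted p = 0.013). Both stayed called in the 13 alternatives that tested them, and a minimum of 10 counts in every library left both untested. Without both pools that stood between the groups, Plaur was called at 0.78 ± 0.15 (edgeR adjusted p = 0.0025) and Gpihbp1 at −2.22 ± 0.32 (adjusted p = 0.000577), beside 43.9% of all features. Without sham pool 4 alone they were called at 0.72 and −1.43, beside 34.6% of all features. Without SNT pool 1 alone Gpihbp1 was called at −2.05, beside 36.1%. Both pools were picked by their injury index, so calls gained without them are no further support.

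Between Ly6d and Ly6h on chromosome 15, the mouse table listed 38 annotated genes, 18 of them protein-coding, and 8 were tested. Of the 2 that were not members, Ly6g (chr15:75155240-75159126, plus strand) was called between strains, as given above, and so was the pseudogene I830127L07Rik, at no more than 0.224 CPM in any group mean. Neither was called after SNI in either strain or for the interaction. Ly6g lies 157.2 kb from the start of Ly6a and was lower in B10.D2, and Ly6a was higher in B10.D2 sham.

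**Figure D5:**
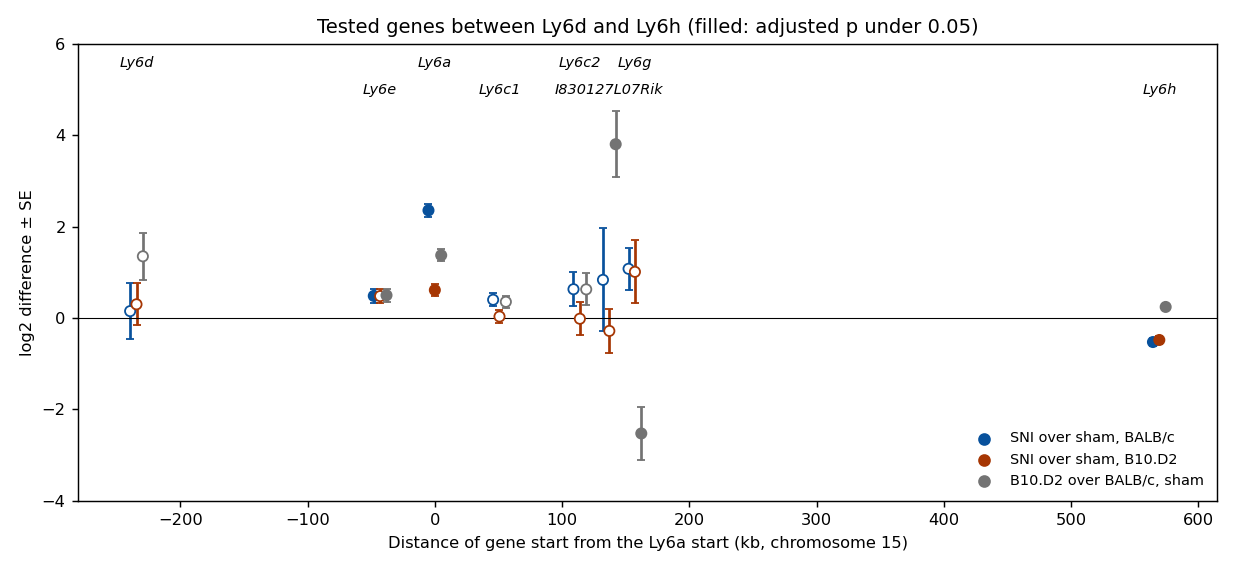
Log2 differences ± SE of the 8 tested genes between Ly6d and Ly6h, by distance of the gene start from that of Ly6a in kb, for SNI in each strain and for B10.D2 over BALB/c in sham. Filled points have an adjusted p-value under 0.05. Ly6a has the highest change after SNI in BALB/c, and Ly6g and I830127L07Rik, which are neighbours, lie on opposite sides of 0 between the strains.

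Genes whose levels followed each member most closely were taken by Pearson's r of log2(CPM + 0.5) over the 20 mouse libraries, which share strain, surgery and depth, so the values only describe the ranking. For Ly6a they were Slc15a3, a transporter of histidine and peptides in lysosomes (r = 0.936), Duoxa1 (r = 0.933) and Il13ra1, a receptor chain for interleukin 13 (r = 0.926). Slc15a3 was at 1.26, 4.12, 1.95 and 3.45 CPM in the means of sham and SNI of BALB/c and then of B10.D2, and Duoxa1 at 0.245, 2.14, 0.862 and 1.12 CPM in the same order. For Ly6h the first was Agtr1b, an angiotensin receptor (r = 0.909), for Ly6e Tm9sf4 (r = 0.888), for Ly6c2 Tspan32 (r = 0.864) and for Ly6c1 Clec2d (r = 0.840). Next came 1110032F04Rik and Ube2q2 for Ly6h, Shpk and Gbp5 for Ly6e, Glipr1 and Clec4a2 for Ly6c2, and Cd300c2 and C5ar1 for Ly6c1. Between members, r was 0.711 for Ly6a with Ly6e, 0.679 for Ly6a with Ly6c1, 0.591 for Ly6c1 with Ly6c2 and −0.532 for Ly6a with Ly6h.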

How the data were processed

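Read pairs from dUTP libraries were mapped by the authors to mm10 or rn6 (STAR) and counted over Ensembl genes and their own assembled LncRNAs (HTSeq, intersection-nonempty). What they deposited are whole-number counts for each feature, not normalized. The authors' result tables also hold base means, fold changes and p-values from DESeq2, of which only the gene symbol was used. Of the labelled mouse samples, 2 lack a count column, number 59 (a sham B10.D2 animal) and number 66 (a BALB/c animal with SNI), and are not analysed here.

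Counts were tested with the quasi-likelihood test of edgeR 4.0.16 in R 4.3.3, with TMM factors, the filterByExpr filter and Benjamini-Hochberg adjustment over all features tested (24685 in mouse, 13690 in rat), two-sided. The mouse model held sex, strain, surgery and their strain by surgery interaction, and the rat model held surgery. SE is the absolute log2 difference divided by the square root of F. CPM is the count divided by library total times TMM factor. Labels give mouse libraries as single animals and rat libraries as pools. SE and SD include the spread between libraries, floors cover counting error only, and PCR duplicates were not told apart. The models were tested on simulated data.

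Mouse positions and exon lengths are from GENCODE M21, to which 49326 of 49585 Ensembl identifiers matched. Sequences are from RefSeq's GRCm38. Identities are from global alignment of coding sequences.

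The members, lists and tests were chosen with earlier results of these data known. All members are named. Other Ly6/uPAR genes are named where called in at least 1 comparison and at 1 CPM or more in at least 1 group mean, cluster genes likewise, and for likeness the 3 genes with the highest r. I830127L07Rik was named after its values were seen. Alternatives were DESeq2 1.42.0, upper-quartile factors, no filter, a minimum of 10 counts in every library, no sex term, subsets of libraries and leaving out each library.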

Additional observations from a re-analysis of the deposited data

Results flagged for a closer look

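In B10.D2 sham, library 77 had Ly6a at 17.9 CPM, with a gap to the next library that was 0.758 of the whole range of the group. The other 4 libraries were at 10.7 to 12.5 CPM.

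In rat, SNT pool 1 had Ly6h at 1.39 CPM, with a gap to the next pool that was 0.883 of the range of its group. In both cases the gap passed Dixon's critical value for a group of that size, which is higher for 4 libraries than for 5. Of 24 groups of values examined these 2 passed, and the critical value is set so that chance passes about 1 group in 20.

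The SNI change of Ly6a differed between the strains by −1.74 (log2, B10.D2 minus BALB/c), by the interaction term of the edgeR fit. The family was chosen knowing this difference, so it is no independent support.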

How the results depend on the processing

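The count of members called was 3 in sham between strains, and 5 with DESeq2, with no filter on low counts and on the sham libraries alone. Between strains in SNI it was 2, and 4 with DESeq2 and with no filter. In rat it was 1, and 0 with at least 10 counts in every library, a setting that drops Ly6h. Leaving out each library gave 1 to 4 members in SNI between strains and 0 to 1 in rat. Of the other Ly6/uPAR genes, 0 were called by sex, and 1 (Lynx1) with DESeq2 and with no filter. No called direction reversed in any alternative run. Over all features, calls by sex went from 60 to 244 with DESeq2, 222 with no filter, 19 on sham, 16 on BALB/c and 32 on B10.D2 libraries alone, and to 159, 35 and 38 without BALB/c sham 56, B10.D2 SNI 89 or BALB/c SNI 65, and interaction calls from 6 to 11 with DESeq2 and 3 with at least 10 counts in every library. Rat calls went from 3753 to 6100 without both sham pool 4 and SNT pool 1, and as low as 1483 without sham pool 3, and B10.D2 SNI calls from 1130 to 665 without library 90.

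Each number in the titles of rat pools is shared by a sham and an SNT pool, and the labels do not say whether it marks a pair or batch. Deviations of same-numbered sham and SNT pools correlated at −0.27 to 0.05. With so few pools this cannot exclude a shared batch. With the number as a replicate block, 1 member was called (Ly6h, −2.38 ± 0.58, edgeR adjusted p = 0.0402), as without it, Plaur was called in addition, and all features called went from 3753 to 2558. No paired analysis was possible in mouse because library numbers are not shared between groups.

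With 4 pools per group and Ly6h counts as low as 2, rat calls on Ly6h rest on few reads, and values of Ly6d, Ly6g6d, Ly6g6e, Ly6i and Ly6k are limited by depth in both species.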
